A study of Mus musculus with 6 samples.

Results

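The Indian hedgehog axis of the uterus was described here through 9 genes, chosen by name from the 23420 genes of the deposited table: the ligand *Ihh*, the receptor genes *Ptch1* and *Smo*, the ligand-binding antagonist *Hhip*, the transcription factor genes *Gli1*, *Gli2* and *Gli3*, and the stromal effectors *Nr2f2* and *Hand2*. In the days before implantation progesterone acts through its receptor PGR in the epithelium, where it induces IHH, which is secreted. IHH crosses to the stroma and binds PTCH1, which releases SMO from repression and lets the GLI factors switch on their targets. COUP-TFII, encoded by *Nr2f2*, is a stromal factor downstream of this signal, and HAND2, another progesterone-regulated stromal factor, restrains the growth factors that stroma sends back to the epithelium.

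RNA was sequenced from whole uteri of C57BL/6J mice aged 8 weeks, collected on day 4.5 of pseudopregnancy after mating with vasectomized males. The 2 genotypes were Foxo1f/f controls, which carry floxed *Foxo1* alleles and no Cre, and PgrCre/+ Foxo1f/f females (Foxo1d/d), in which Cre expressed from the *Pgr* locus deletes the floxed exon. Each genotype had 3 libraries, each made from a pool of 2 mice. In the uterus this Cre acts where PGR is expressed, and vessels keep FOXO1. The deletion is not limited to the uterus, since the study names mammary gland, pituitary and preovulatory granulosa cells as other sites. The Cre insertion also disrupts the *Pgr* allele that carries it, so the Foxo1d/d females differed from the controls at *Pgr* as well as at *Foxo1*, and the effects of these alleles cannot be told apart. Only the authors' mean count per genotype was used, with a total of 26125014 counts in the Foxo1f/f means and 27257963 in the Foxo1d/d means. The differences below therefore have no replicate check, and every interval is a 95% interval that covers counting error only. CPM is the count scaled to a total of 1000000, and a ratio is Foxo1d/d over Foxo1f/f after adding 1 to each mean count.

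*Foxo1* itself, the deleted gene, averaged 3941 counts in the Foxo1f/f libraries and 1456 in the Foxo1d/d libraries. This was 2.82-fold lower, -1.50 on the log2 scale (-1.55 to -1.45). A gene total does not separate counts of exons outside the deletion, or of cells without Cre, from those of the deleted exon. *Pgr*, the receptor at the top of the axis, averaged 5469 and 6551 counts, with a log2 ratio of 0.20 (0.17 to 0.23), and reads from its disrupted and intact alleles cannot be told apart.

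Of the 9 axis genes, all had a mean count over both genotypes of at least 10. Past 1.5-fold, 1 gene was higher in Foxo1d/d (*Ihh*) and 0 were lower. Over the 15696 genes with such a count, 853 (5.43%) were past 1.5-fold higher and 551 (3.51%) were past it lower. *Hhip* lay just under the same line, with a ratio of 1.499 against 1.517 for *Ihh*. The count at 1.5-fold is therefore not firm: it was 2 with a pseudocount of 0.1, which takes in *Hhip*, and 0 when ratios were centred on their median or scaled by a trimmed mean of log ratios, which leaves out *Ihh*, while upper-quartile scaling kept it at 1. At a nearer line, a ratio of 5 to 4, *Ihh* and *Hhip* made 2 higher genes and 0 were lower, where 12.5% of all genes were higher and 9% lower. At 2-fold the count was 0, beside 1.99% of all genes higher and 1.4% lower. Across the 9 genes the log2 ratios were above 0 in 5 and below 0 in 4, with a median of 0.06, and the median over all genes was 0.02. The ligand and its antagonist were thus the 2 axis genes with the highest ratios, while the other 7 lay between -0.19 and 0.27.

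**Figure D1:**
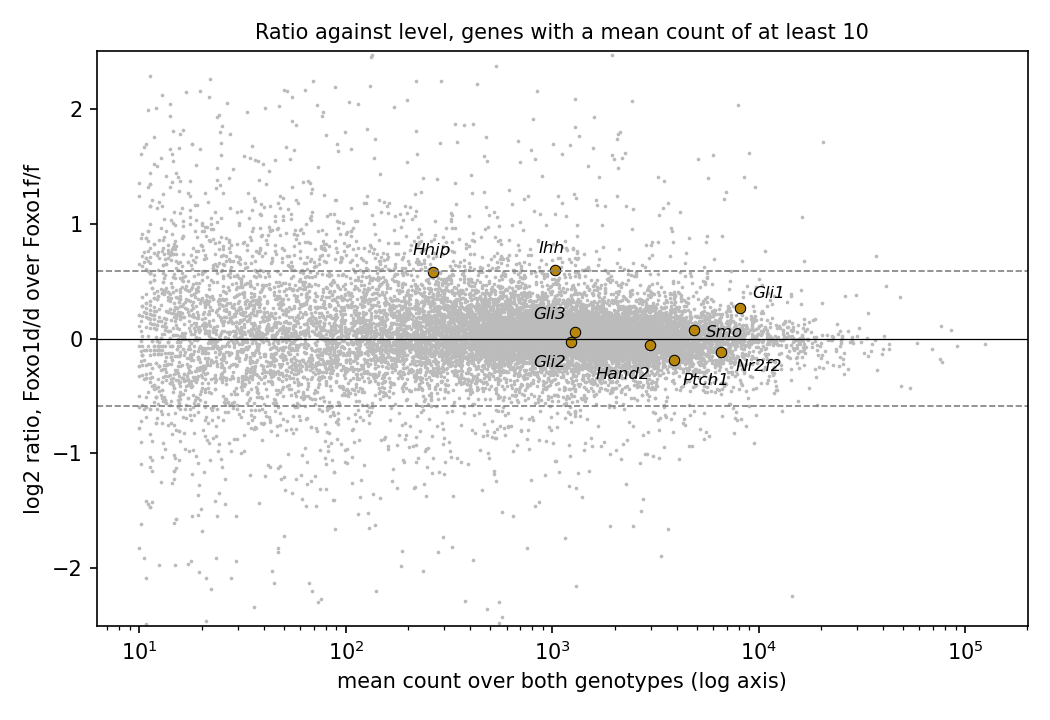
Log2 of Foxo1d/d over Foxo1f/f mean counts (vertical axis) against the mean count over both genotypes (horizontal log axis) for the 15696 genes that averaged 10 counts or more; each grey point is a gene, gold points are the axis genes and dashed lines mark 1.5-fold. *Ihh* lies above and *Hhip* at the upper line, and the other 7 axis genes lie between the lines; 49 genes fall outside the drawn ratio range.

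*Ihh*, the only hedgehog ligand gene among the 9, averaged 796 counts in the controls and 1260 after deletion, or 30.5 (29.3 to 31.7) and 46.2 (44.8 to 47.7) CPM. The log2 ratio was 0.60 (0.53 to 0.68). The interval reaches below 1.5-fold, which is 0.585 on the log2 scale. Among the 6823 genes with mean counts of 1000 to 10000, 109 (1.6%) had a ratio at least as high, and 1.74% were past 1.5-fold higher and 1.45% lower. *Ihh* lies at the low edge of this range, and with mean counts of 100 to 1000 the share past 1.5-fold higher was 4.89%, so how uncommon its ratio was depends on the range chosen. *Ihh* lies on the minus strand of chromosome 1 (GRCm38.p6, chr1:74945315-74951672), and no other RefSeq gene overlaps it.

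The antagonist *Hhip* (chr8:79965850-80058060, minus strand) encodes a membrane protein that binds hedgehog ligands and is itself a GLI target. It had the lowest count and the lowest level per length of the 9, with mean counts of 205.7 and 322.3, or 7.87 (7.26 to 8.52) and 11.8 (11.1 to 12.6) CPM. The log2 ratio was 0.58 (0.44 to 0.74). With mean counts of 100 to 1000, 287 of 5847 genes (4.91%) had a ratio at least as high, where 4.89% were past 1.5-fold higher and 3.01% lower. The wider interval of *Hhip* follows from its low count. Inside its span lies 1 noncoding RefSeq gene, which was not analysed here.

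The sequences before the starts of these 2 genes are shown because their ratios were the highest of the axis. They are RefSeq sequence (GRCm38.p6, minus strand, read 5′ to 3′), kept to the 250 bases before the start and to bases outside the annotated gene. Capitals mark the first stretch that best matches the 9-base GLI motif GACCACCCA or its reverse complement TGGGTGGTC, which in both genes holds 7 of the 9 letters. It begins 182 bases before the annotated gene in *Ihh* (chr1:74951673-74951922) and 108 bases before it in *Hhip* (chr8:80058061-80058258). The *Hhip* window is counted from a start inside the annotated gene, so its last 52 bases lie in the gene and are not shown. The *Ptch1* and *Gli2* windows, which enter the counts below, lie wholly inside their annotated genes for the same reason.
Ihh: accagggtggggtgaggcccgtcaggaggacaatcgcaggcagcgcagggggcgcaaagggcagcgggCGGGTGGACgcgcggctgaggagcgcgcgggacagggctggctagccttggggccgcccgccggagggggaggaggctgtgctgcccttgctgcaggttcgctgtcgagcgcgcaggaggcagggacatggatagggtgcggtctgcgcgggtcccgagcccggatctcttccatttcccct
Hhip: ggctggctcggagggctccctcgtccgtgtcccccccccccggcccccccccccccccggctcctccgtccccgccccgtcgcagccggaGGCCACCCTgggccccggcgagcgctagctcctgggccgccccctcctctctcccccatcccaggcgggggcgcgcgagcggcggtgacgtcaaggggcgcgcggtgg
Promoter windows of 250 bases were matched for 8 of the 9 genes, all but *Gli1*. The whole GLI motif was in 0 of these 8 and in 0.225% of all 32851 promoter windows. A match of at least 7 letters was in 5 of the 8 (*Ihh*, *Smo*, *Gli2*, *Hhip* and *Hand2*) and in 51.8% of all windows, so a match of this quality is common. The 7-base FOXO core GTAAACA or its reverse complement TGTTTAC was in 0 of the 8 and in 3.17% of all windows. These are counts of letters in short windows and say nothing of binding by either factor. The windows of the 8 genes ran from 49.2% G and C in *Hand2* to 78.4% in *Ptch1*, with *Ihh* at 72.0% and *Hhip* at 76.0%, against a median of 52.4% over all windows.

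The receptor genes stood nearer 0 than the ligand. *Ptch1* (chr13:63508328-63573460), which encodes the receptor and is also a GLI target, had mean counts of 4063 and 3720. It was 1.14-fold lower in Foxo1d/d, a log2 ratio of -0.19 (-0.23 to -0.15), and 833 of 6823 genes of like count (12.2%) had a ratio at least as low. *Smo* (chr6:29735497-29761366), the signal transducer that PTCH1 holds in check, averaged 4616 and 5060 counts, with a log2 ratio of 0.07 (0.04 to 0.10).

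Among the GLI factors, *Gli1* (chr10:127329882-127341579), an activator whose own transcription is a common readout of hedgehog signaling, had mean counts of 7211 and 9047, or 276 and 332 CPM. It was 1.202-fold higher, a log2 ratio of 0.27 (0.24 to 0.29), and 490 of the 6823 genes of like count (7.18%) had a ratio at least as high. Its annotated exons share 62 bases with *Arhgap9* on the opposite strand, whose log2 ratio was 0.44 (0.35 to 0.54), and whether counting used strand was not given in the sources used here. *Gli2* (chr1:118834061-119054405), the main activator upstream of *Gli1*, averaged 1220 and 1243 counts, with a log2 ratio of -0.03 (-0.10 to 0.03). *Gli3* (chr13:15463723-15730026), which in the absence of ligand is processed to a repressor, averaged 1228 and 1336 counts, with a log2 ratio of 0.06 (-0.005 to 0.125). RefSeq places 2 noncoding genes over *Gli2*, 1 over *Gli3* and 1 pseudogene over *Smo*, and these were not analysed here. The intervals of *Gli2* and *Gli3* both hold 0, so a difference was not detectable at this depth.

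Both stromal effectors lay slightly below 0. *Nr2f2* (chr7:70351946-70366746) averaged 6681 and 6416 counts, with a log2 ratio of -0.12 (-0.15 to -0.09). *Hand2* (chr8:57320983-57324517) averaged 2968 and 2975 counts, with a log2 ratio of -0.06 (-0.10 to -0.02). *Nr2f2* overlaps the noncoding gene *B130024G19Rik* on the opposite strand, with 0 shared exon bases, whose log2 ratio was -0.09 (-0.16 to -0.03).

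Levels of different genes were compared as CPM per kilobase of annotated exon. In Foxo1f/f the order was *Gli1* (68.0), *Nr2f2* (52.6), *Hand2* (48.3), *Smo* (46.8), *Ptch1* (19.9), *Ihh* (12.35), *Gli2* (7.03), *Gli3* (5.64) and *Hhip* (0.868). The counting intervals of *Hand2* (47.3 to 49.4) and *Smo* (46.0 to 47.5) overlapped, and no other neighbours in that order did. In Foxo1d/d *Gli1* was again highest, at 81.8, and *Hhip* lowest, at 1.30. There *Smo* (49.1), *Nr2f2* (48.4) and *Hand2* (46.4) stood next to each other, and the intervals of *Smo* (48.3 to 49.9) and *Nr2f2* (47.7 to 49.0) overlapped. *Ihh* (18.7) stood above *Ptch1* (17.5), which in Foxo1f/f stood above *Ihh*.

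**Figure D2:**
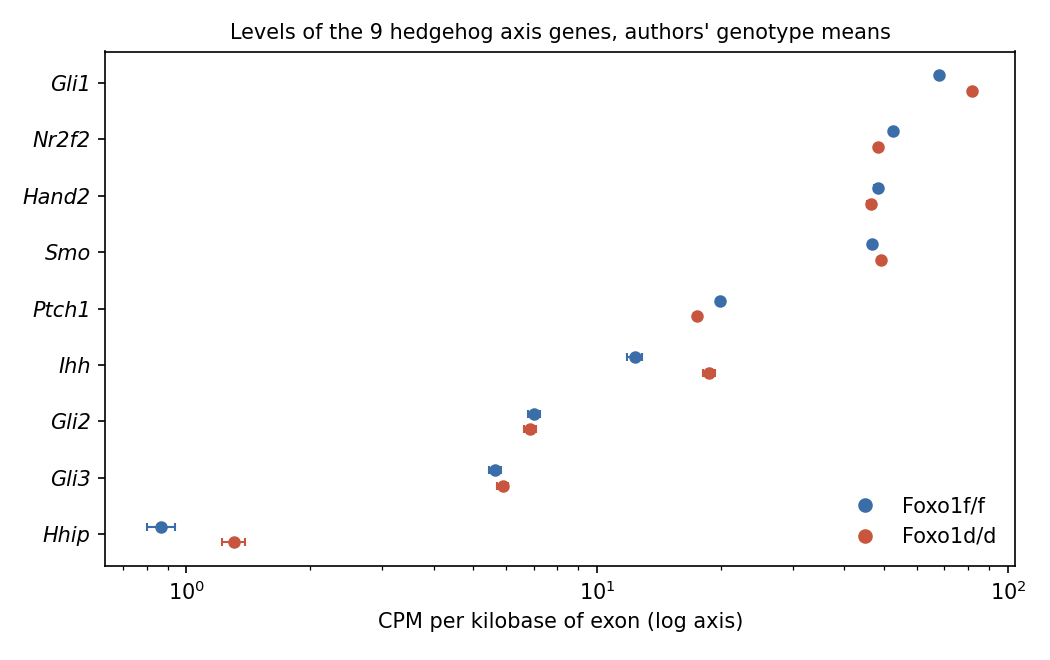
Level of each axis gene in CPM per kilobase of exon (horizontal log axis) in Foxo1f/f (blue) and Foxo1d/d (red), from the authors' means; bars are 95% counting intervals and are smaller than the points where not visible. *Ihh* and *Hhip* show the widest gaps between genotypes, with *Ihh* at 12.35 and 18.7 and *Hhip* at 0.868 and 1.30.

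The wider pathway was read from lists of genes by role. Together they name 83 genes, of which 80 had a mean count of at least 10, and 7 of these were past 1.5-fold higher (8.75%) and 6 lower (7.5%), with a median log2 ratio of -0.03. Of all genes with such a count, 5.43% were higher and 3.51% lower, and their median was 0.02. The lists were chosen with earlier results of these data known, so a share above that of all genes can follow from the choice of genes. The counts given below for each list are to be read beside these shares of all genes. Most of the genes past the line were in the list for the epithelial progesterone response. None were in the lists for steps between SMO and GLI, the cilium, the GLI factors or the GLI targets.

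Of the 8 genes for hedgehog ligands and their release, 7 had a sufficient count, 2 were past 1.5-fold higher, 1 was lower and the median log2 ratio was 0.14. *Shh* was at 0 counts in both genotypes, which allows up to 3 counts over the libraries of a genotype, or 0.0383 CPM in Foxo1f/f and 0.0367 in Foxo1d/d. *Dhh*, the remaining ligand gene, averaged 115.7 and 133 counts, with a log2 ratio of 0.14 (-0.07 to 0.35), and its level per kilobase of exon was 1.01 CPM in Foxo1f/f and 1.11 in Foxo1d/d, under that of *Ihh* given above. *Scube1* and *Scube2*, relatives in a family of secreted proteins of which SCUBE2 helps release lipid-modified ligand, lay on opposite sides. *Scube1* averaged 4525 and 8761 counts, with a log2 ratio of 0.89 (0.86 to 0.92). *Scube2* averaged 649.7 and 437 counts, with a log2 ratio of -0.63 (-0.735 to -0.532). *Scube3* stood at 0.28 (-0.04 to 0.61). *Disp1*, which exports the ligand, was at -0.055 and *Hhat*, which attaches palmitate to it, at -0.03 on the log2 scale, both with intervals that hold 0.

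Among 8 receptor, co-receptor and decoy genes, 1 was past 1.5-fold higher, 0 were lower and the median log2 ratio was -0.13. *Lrp2*, the gene of the endocytic receptor megalin, which binds hedgehog ligands among many others, had mean counts of 3948 and 9579. It was 2.325-fold higher, a log2 ratio of 1.22 (1.187 to 1.249). The ligand-binding co-receptor *Boc* had mean counts of 2216 and 1545 and was 1.496-fold lower, just inside the line, at -0.58 (-0.635 to -0.527). Its relative *Cdon* stood at -0.25 (-0.298 to -0.205) and *Gpc3*, a glypican that competes for ligand, at -0.21 (-0.26 to -0.16).

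Of 16 genes of the steps between SMO and GLI, 0 were past 1.5-fold in either direction and the median log2 ratio was -0.02. With 5.43% of all genes past this line higher and 3.51% lower, and fewer at high counts, a count of 0 in a list this short is near the background, here and in the other lists with 0. The highest were *Efcab7* at 0.27 (0.131 to 0.415), *Csnk1a1* at 0.08 and *Adrbk1* at 0.07. The lowest were *Gpr161*, a cilium receptor that keeps the pathway off, at -0.41 (-0.53 to -0.30), *Stk36* at -0.17 and *Spop* at -0.14. The negative regulator *Sufu* averaged 946 and 964 counts, with a log2 ratio of -0.03 (-0.11 to 0.04). Hedgehog signals pass through the primary cilium, and of 10 genes for it 0 were past 1.5-fold, with 7 below 0 and a median of -0.17. These ran from *Kif3a* at -0.27, *Ift122* at -0.25 and *Arl13b* at -0.20 to *Ift88* at 0.05, *Ofd1* at 0.10 and *Tulp3* at 0.12.

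The GLI target genes were split. Of 11 listed, 9 had a sufficient count, 0 were past 1.5-fold and the median log2 ratio was -0.15. *Hhip* and *Gli1* were above 0, as given above, together with the cyclin genes *Ccnd2* at 0.405 (0.354 to 0.457) and *Ccnd1* at 0.16 (0.12 to 0.21). *Ptch1* was below 0, with *Mycn* at -0.37 (-0.505 to -0.229), *Foxf1* at -0.34 (-0.47 to -0.22), *Bcl2* at -0.21 (-0.27 to -0.16) and *Bmp4* at -0.15 (-0.23 to -0.07). The mesenchymal forkhead genes *Foxf2*, with mean counts of 3.67 and 2, and *Foxl1*, with 2.33 and 2.67, were under the count minimum. *Gli1* and *Ptch1*, the pair most often read as reporters of the pathway, therefore differed in sign in these means.

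**Figure D3:**
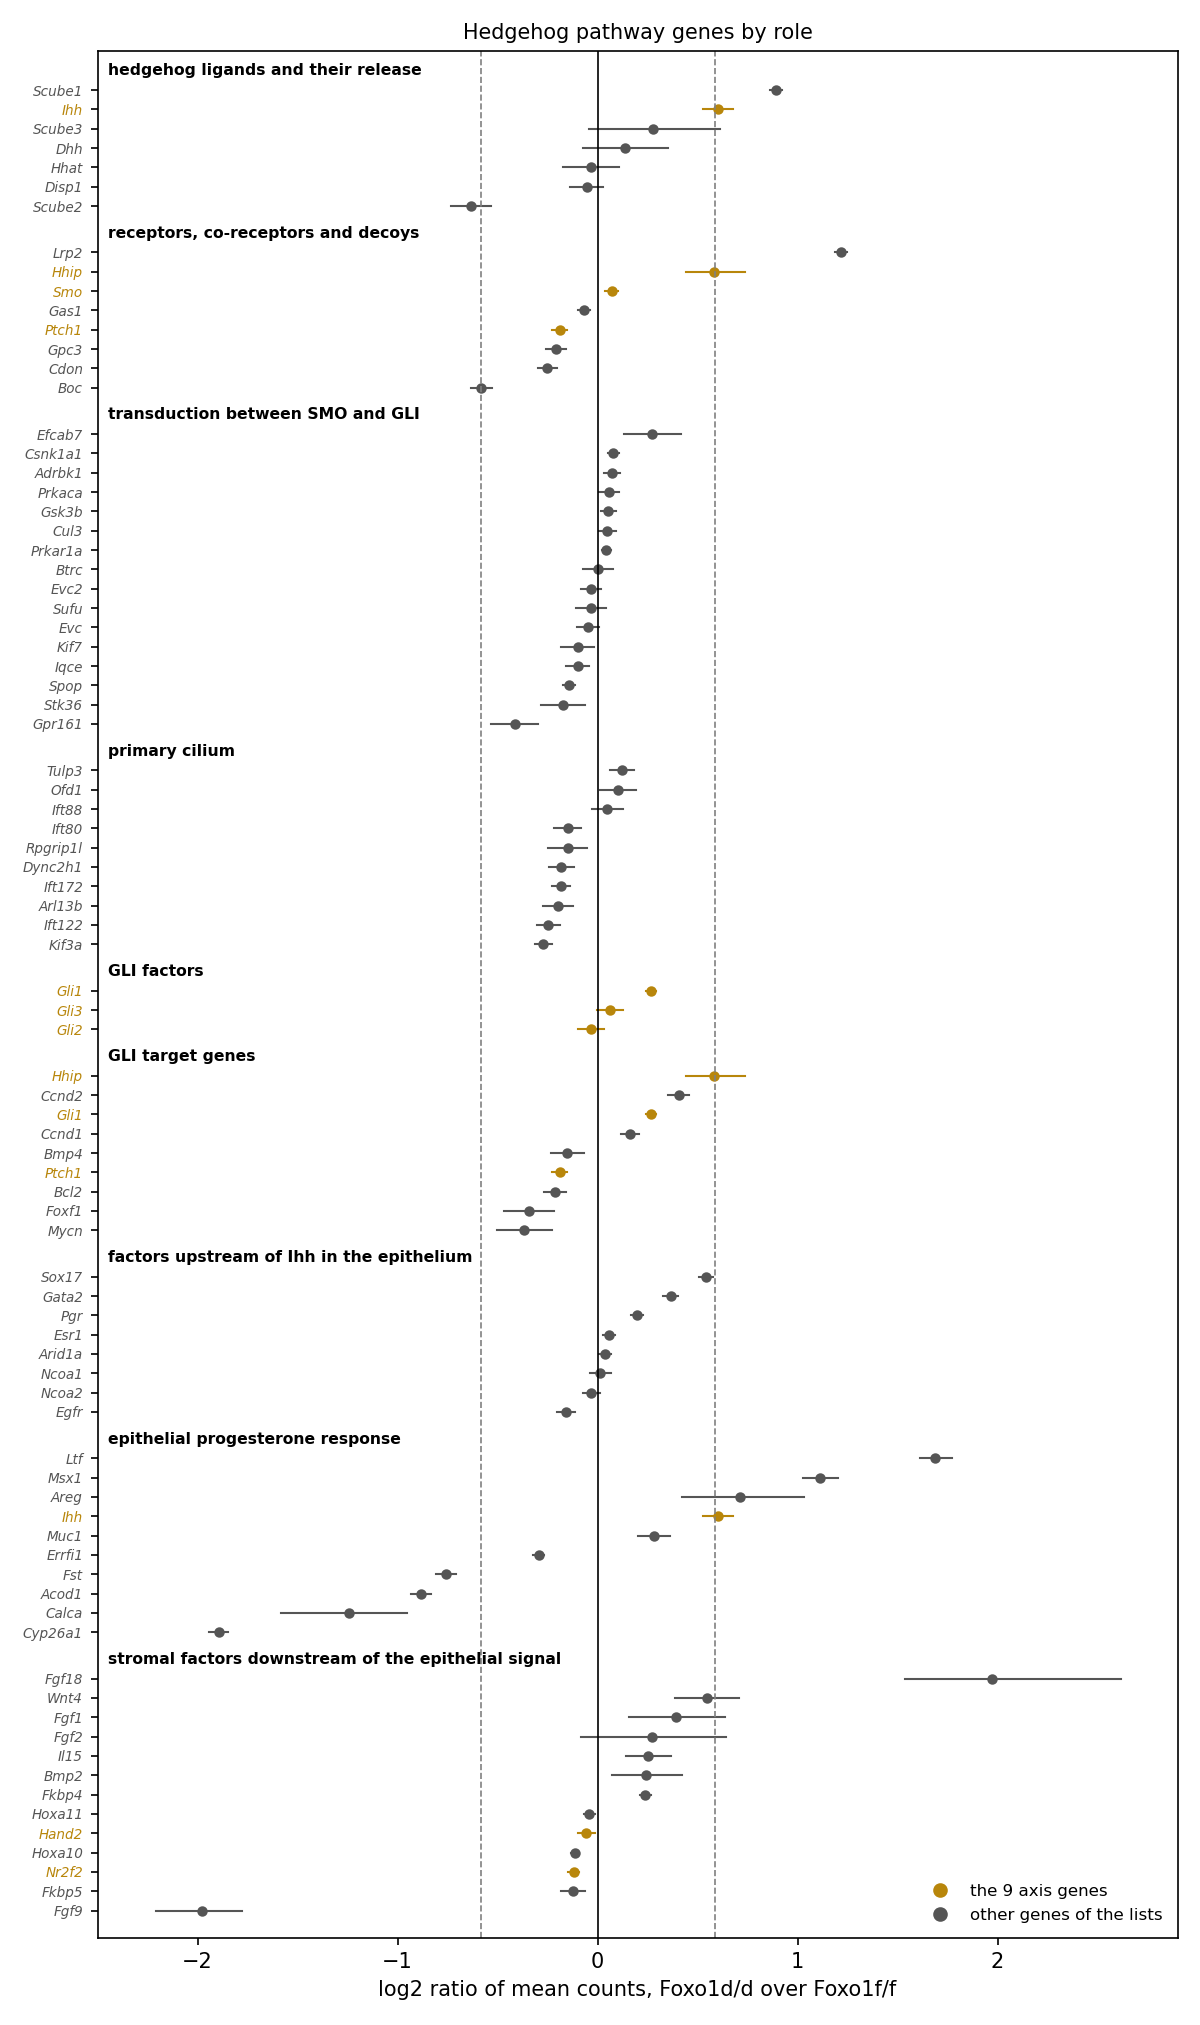
Log2 of Foxo1d/d over Foxo1f/f mean counts (horizontal axis) for each listed gene with a mean count of at least 10, grouped by role, with the axis genes in gold; a gene in several lists is drawn in each, bars are 95% counting intervals and dashed lines mark 1.5-fold. The steps between SMO and GLI lie between -0.41 and 0.27, and the genes listed for the epithelial progesterone response run from -1.895 to 1.69.

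Upstream of *Ihh*, 0 of 8 epithelial factors were past 1.5-fold and the median log2 ratio was 0.05. The transcription factor genes *Sox17* and *Gata2*, both known regulators of uterine *Ihh*, had the highest ratios of this list. *Sox17* averaged 3496 and 5306 counts, with a log2 ratio of 0.54 (0.505 to 0.577), and *Gata2* 3591 and 4828, a log2 ratio of 0.365 (0.329 to 0.402). The receptor gene *Egfr* stood at -0.16 (-0.20 to -0.11), and the coactivator genes *Ncoa1* and *Ncoa2* at 0.01 and -0.03, with intervals that hold 0.

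*Ihh* was also read among 10 genes listed for the epithelial progesterone response, all with a sufficient count. Of these 4 were past 1.5-fold higher, 4 were lower and the median log2 ratio was -0.01. On the higher side with *Ihh* were *Ltf*, an estrogen-induced secretory gene, at 1.69 (1.61 to 1.77), the homeobox gene *Msx1* at 1.11 (1.028 to 1.204) and the EGF-family ligand *Areg* at 0.71 (0.42 to 1.03). Since *Ltf* is induced by estrogen, the counts and median of this list do not give a direction of the progesterone response. On the lower side were *Cyp26a1*, which breaks down retinoic acid, at -1.895 (-1.944 to -1.848), *Calca* at -1.24 (-1.58 to -0.95), *Acod1* at -0.88 (-0.93 to -0.83) and follistatin, *Fst*, at -0.76 (-0.81 to -0.71). *Ihh* and *Areg*, both induced by progesterone in the epithelium before implantation, thus lay opposite to *Cyp26a1* and *Calca*, which are also induced by it. *Areg* and *Calca* rest on low counts, with means of 47.3 and 81.7 for *Areg* and 94.3 and 41.0 for *Calca* in Foxo1f/f and Foxo1d/d. With mean counts of 10 to 100, 16.1% of genes were past 1.5-fold higher and 9.98% lower.

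Downstream in the stroma, 1 of 13 genes was past 1.5-fold higher, 1 was lower and the median log2 ratio was 0.24. Over all genes with a sufficient count 5.43% were higher and 3.51% lower, so 1 gene each way in a list this short is near the background. With mean counts of 10 to 100, where *Fgf18* lies, 16.1% of genes were past 1.5-fold higher and 9.98% lower. Both list genes past the line, *Fgf18* and *Fgf9*, were fibroblast growth factor genes, of the kind that HAND2 holds down. *Fgf18* averaged 12.3 and 53.7 counts, with a log2 ratio of 1.97 (1.54 to 2.62), and *Fgf9* 293.3 and 77, a log2 ratio of -1.98 (-2.21 to -1.78). *Fgf1* stood at 0.39 (0.16 to 0.64) and *Fgf2* at 0.27 (-0.08 to 0.64), so the 4 FGF genes did not share a direction while *Hand2* stood at -0.06. *Wnt4*, a signal of decidualizing stroma, stood at 0.545 (0.388 to 0.709), *Bmp2* at 0.24 (0.07 to 0.42) and *Fkbp5* at -0.12 (-0.18 to -0.06). Among the genes of this list that averaged 50 counts or more the median was -0.04.

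Whole uterus holds many cell types, and in bulk RNA fewer cells of a type and less RNA per cell cannot be told apart. Markers of the compartments of the axis were therefore read in the same way. All 9 epithelial markers were detected, with a summed level of 789 CPM in the controls and 960.2 CPM in Foxo1d/d and a log2 value of 0.28. Of these 8 were above 0 and 1 below, with *Cdh1* the most abundant at 169.9 and 183 CPM. *Krt19* was at 1.22, *Elf3* at 0.86 and *Krt18* at -0.03 on the log2 scale, so the markers did not move as a block. Divided by the summed epithelial level, *Ihh* was 1.247-fold higher, a log2 value of 0.32. *Krt19* and *Elf3* had higher ratios than *Ihh* and the other markers lower ones, so this value depends on the markers summed. The part of epithelial content in the *Ihh* difference was not tested.

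Gland markers were more uneven, with summed levels of 775 and 125 CPM. This sum was led by *Prss29*, at 526 and 23.9 CPM, and *Prss28* was at -6.555 on the log2 scale, while *Foxa2*, the transcription factor of glands, was at 0.04 (-0.10 to 0.18), *Lif* at 0.99 and *Cxcl15* at 0.96. All 8 stromal markers were detected, with sums of 15565 and 16020 CPM (log2 ratio 0.04), led by *Col3a1* at 4758 and 4606. They were split, with 4 above 0 and 4 below. *Lum* was at 0.375 and *Col6a1* at 0.36 on the log2 scale, while *Pdgfra*, at -0.26, and *Vim*, at -0.24, were lower than *Ptch1* and *Nr2f2*. The sum follows its most abundant genes, the collagens. Divided by the stromal sum, *Gli1* was at 0.22, *Hhip* at 0.54, *Ptch1* at -0.23, *Nr2f2* at -0.16 and *Hand2* at -0.10 on the log2 scale. *Ptch1*, *Nr2f2* and *Hand2* had higher ratios than *Pdgfra* and *Vim*, so their signs after such a division depend on the markers used.

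The muscle and vessel compartments lay below 0 throughout. Smooth muscle markers summed to 7088 and 5727 CPM, with 7 of 7 below 0 and *Myh11* the most abundant at 2323 and 1724. Endothelial markers summed to 1351 and 1164, with 6 of 6 below 0 and *Pecam1* the most abundant at 373 and 319. Lymphatic markers summed to 147.5 and 126, with 4 of 4 below 0 and *Flt4* the most abundant at 65.3 and 55.4. Their medians of -0.27, -0.22 and -0.23 stand beside ratios of -0.19 for *Ptch1* and -0.12 for *Nr2f2*, and COUP-TFII is also made in venous and lymphatic endothelium; the part of these cells in those ratios was not tested. Immune markers summed to 265.5 and 323, with 6 of 6 above 0 and *Ptprc* the most abundant at 97.8 and 129, and *Cd3e* was past 1.5-fold higher at 1.085 (0.82 to 1.38) on the log2 scale. Mesothelial markers summed to 202 and 184 and were led by *Wt1*, at 159 and 135, the only 1 of 4 below 0, and their median was 0.16. Of the blood genes *Hba-a1* and *Hba-a2* were at 0 in both genotypes and *Hbb-bs* was at 41.6 and 92.8 CPM. Why *Hba-a1* and *Hba-a2* had no counts was not tested, so the reading of blood rests on 1 gene.

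**Figure D4:**
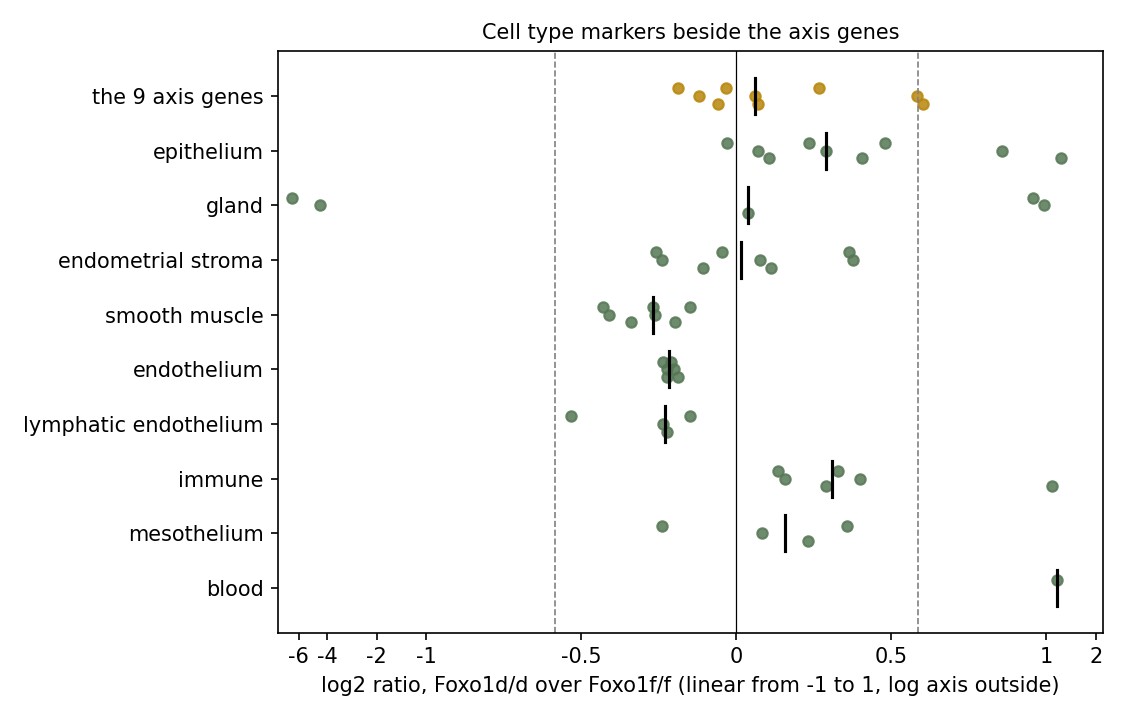
Log2 of Foxo1d/d over Foxo1f/f mean counts for the axis genes (gold) and for the markers of each cell type (green), with a mean count of at least 10; each point is a gene, black bars are medians, dashed lines mark 1.5-fold, and the horizontal axis is linear from -1 to 1 and logarithmic outside. Every smooth muscle, endothelial and lymphatic marker lies below 0, every immune marker above 0, and the epithelial markers run from -0.03 to 1.22.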

How the data were processed

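Per the sources used here, the libraries were made from the poly(A)-selected part of total uterine RNA. The authors removed the first bases of the paired-end reads, mapped them with STAR and removed duplicates with Picard. They counted reads per gene with HTSeq (versions not given in the sources used here). The labels name the build mm9 and the study's methods name mm10; positions printed here are of GRCm38.p6, a release of the assembly from which mm10 was made. The deposited values are the authors' mean raw counts over the 3 libraries of each genotype, not scaled for depth. Removing duplicates limits how many counts a highly expressed gene can gain. The table also holds the authors' edgeR fold changes, p-values, false discovery rates and log2 levels, which were not used.

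Each mean was divided by its genotype's total. Log2 ratios used a pseudocount of 1, a minimum mean count of 10 and a line of 1.5-fold. Exact binomial (ratios) and exact Poisson (levels) intervals at 95% were computed from 3 times each mean. No test was made, since library counts were not used here. Exon lengths came from GENCODE M21, gene positions, synonyms and promoters from RefSeq. *Acod1*, *Cxcl15* and *Hbb-bs* were found under the older symbols Irg1, Il8 and Beta-s, and *Hbb-bt* was not matched. Named were the 9 genes, *Foxo1*, *Pgr*, and of each pathway list the genes past 1.5-fold and the 3 highest and 3 lowest; of each marker list the most abundant gene was named, and others after their values were seen; *Dhh*, *Shh*, *Sufu*, *Ccnd1*, *Bmp4*, *Foxf2*, *Foxl1*, *Fgf2*, *Bmp2* and the genes overlapping *Gli1* and *Nr2f2* were named after their values were seen. Some genes chosen for the lists are not reported here, and list counts, medians and sums are over the remaining genes. Members and lists were chosen with earlier results of these data known. Alternatives were another pseudocount, 3 other scalings, other fold lines and other count minimums. Computation used Python 3.11.15, numpy 2.4.6, pandas 2.3.3, scipy 1.17.1 and matplotlib 3.10.9, and was tested on simulated data.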

Additional observations from a re-analysis of the deposited data

How the results depend on the processing

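The 9 axis genes kept the sign of their log2 ratios under a pseudocount of 0.1 and under 3 other scalings (median centring, upper quartile, trimmed mean of log ratios), and none moved by more than 0.026. *Gli1* went from 0.266 to 0.240 with the trimmed mean, just outside its counting interval. The count of axis genes past 1.5-fold higher rests on this small margin: it was 1 (*Ihh*) with total counts, 2 with a pseudocount of 0.1, 0 with median centring, 1 with the upper quartile and 0 with the trimmed mean, and it was 2 at a ratio of 5 to 4 and 0 at 2-fold. The scalings shift every ratio alike, by at most 0.026, and 2 of the 3 take *Ihh* under a line it lies beside; *Hhip* crosses that line only with the other pseudocount. Over all genes, 853 were past 1.5-fold higher and 551 lower. These counts were 1346 and 919 with a minimum mean count of 1, 528 and 357 with a minimum of 50, and 1588 and 1135 with no minimum, where more or fewer genes are counted. At a ratio of 5 to 4 they were 1968 and 1412, and at 2-fold 313 and 220. Of the pathway list genes, 7 were past 1.5-fold higher and 6 lower. These list counts were 13 and 10 at a ratio of 5 to 4, and 4 and 3 at 2-fold. With the other pseudocount and scalings the higher list count ran from 6 to 8 and the lower from 6 to 7. The other fold lines for all genes were added after seeing the data, as were the pseudocount and scalings for all genes and list genes.

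No paired analysis was possible because the values used are means over the numbered libraries of each genotype, and a mean has no replicate number. Fits with single libraries, with a replicate block and with a library left out were not run for the same reason. Counting error is smaller than the difference for every axis gene but *Gli2* and *Gli3*. The spread between pools of mice was not measured here, so these means cannot show whether differences of these sizes exceed it. Among listed genes past the count minimum the counting intervals were widest for *Fgf18*, *Fgf2* and *Scube3*, and among the 9 for *Hhip*.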
